A study of Homo sapiens with 18 samples.

Results

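The SETD3 knockout line KO1 was compared with its SETD3 control, CT, in HCT-116, an established human colorectal carcinoma cell line. The comparison used 6 of the 18 libraries of the series, 3 labelled SETD3_CT and 3 labelled SETD3_KO1, chosen by their labels and by the matching columns of 1 deposited gene table. Of the 60683 gene rows of that table, 13846 had enough counts to be tested, and each of these genes entered the comparison. All cells were grown in serum-containing DMEM, and poly(A)-selected RNA was sequenced. Neither group carries a drug treatment or a time point in the labels. The table also holds a further SETD3 knockout line, KO2 (3 libraries, of which replicate 3 is labelled HCT-117), and the other 9 libraries come from Actin KO cells with and without actin over-expression. The labels do not say how SETD3 was knocked out, whether KO1 is a single clone, or whether replicates came from separate cultures. The spread behind each p-value is that between these libraries and may be technical. KO1 and CT differ in line as well as in genotype, and with 1 KO1 line these cannot be told apart.

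SETD3 is the methyltransferase that modifies a histidine of actin, and the series title places actin methylation beside the chromatin remodeller SMARCA4, translation and adhesion. Actin is also a sensor for transcription, since monomeric actin holds the coactivator MRTF away from the serum response factor SRF. Interferon-stimulated genes, which carry the main result here, are switched on when a transcription factor complex containing IRF9 binds interferon-stimulated response elements in their promoters. Colorectal cancer cells can express a low set of these genes without added interferon.

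The data show few differences that passed the test. IFI6 and BST2, both interferon-stimulated, were lower in KO1 than in CT, and they were the only genes called by edgeR's quasi-likelihood test at an adjusted p below 0.05. That is 2 of 13846 genes, or 0.0144%, with 0 higher and 2 lower. At an unadjusted p below 0.05 the same test gave 796 genes (5.75%), 380 higher (2.74%) and 416 lower (3%). DESeq2 called 39 genes higher and 51 lower on the same counts, and limma-voom called 0 higher and 3 lower. Over all tested genes the median log2 fold change (KO1 minus CT) was -0.02, with quartiles of -0.43 and 0.35.

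The CT libraries held 9966534, 4898827 and 8091464 expected counts, and the KO1 libraries 6526017, 7899891 and 6835427. The median standard error of a log2 fold change was 0.23 for genes above 100 CPM (counts scaled to the library total by TMM, the level used throughout), 0.35 at 20 to 100 CPM, 0.66 at 5 to 20 CPM and 1.35 at 1 to 5 CPM. CT replicate 2, KO1 replicate 3 and KO2 replicate 1 had the fewest genes detected in their groups after thinning to equal depth. Their deviations from the group means moved together, with correlations across 3905 genes of 0.33 between CT replicate 2 and KO1 replicate 3, and of 0.56 and 0.39 between each of these and KO2 replicate 1. Across genes, which are not independent replicates, the fold change correlated with GC content at r = -0.05. The deviations of these 3 libraries correlated with GC content at 0.51, 0.34 and 0.52, and those of the other libraries at -0.50 to 0.03; the part of GC content in the results was not tested. Epithelial markers fitted the label in part. KRT19 was at 1483 to 3160 CPM, KRT18 at 3539 to 5934 CPM and EPCAM at 267 to 784 CPM over the 6 libraries, while CDH17 was at 0 in all 6. Of 11 fibroblast markers 7 were at 0 in all 6 libraries, but COL6A3, a collagen VI chain, stood at 7427 to 10227 CPM.

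SETD3 itself did not separate the groups. Its transcript, which the annotation places at chr14:99397746-99480889 on the minus strand of GRCh38, was at 15.5, 14.0 and 36.0 CPM in CT replicates 1 to 3. In KO1 it was at 6.81, 6.34 and 17.1 CPM. KO1 replicate 3 lay above CT replicates 1 and 2, so the groups overlapped. The log2 fold change was -1.12 ± 0.52 (SE, n = 3 against 3; edgeR adjusted p = 0.879), and it was -0.54 without CT replicate 3 and -1.73 without KO1 replicate 3. A poly(A) count covers the whole transcript and does not read the edited site or the protein, so it neither checks nor contradicts the knockout label. In KO2 the transcript was at 15.6, 22.3 and 27.7 CPM, within the range of CT.

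The cytoplasmic actins, the known substrate, were measured at high counts. ACTB, beta-actin, was at 1189, 889 and 1296 CPM in CT and at 1456, 1276 and 1352 CPM in KO1, overlapping groups with a log2 fold change of 0.27 ± 0.22 (edgeR adjusted p = 0.998). ACTG1, gamma-actin, was at 3481, 2454 and 3514 CPM in CT and at 4155, 4191 and 3578 CPM in KO1. All 3 KO1 values of ACTG1 were above all 3 CT values, yet its log2 fold change of 0.34 ± 0.23 did not pass the test (edgeR adjusted p = 0.998). SMARCA4, the ATPase of BAF remodelling complexes, was at 246, 139 and 183 CPM in CT and at 220, 200 and 223 CPM in KO1. Its log2 fold change was 0.18 ± 0.23 (edgeR adjusted p = 0.998), and its sign changed in 1 of 17 alternative settings.

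IFI6 and BST2 are shown first because they carry the result. IFI6 (ENSG00000126709, chr1:27666061-27672218, minus strand, GRCh38) encodes a small membrane protein that restrains cell death and virus replication after interferon. BST2 (ENSG00000130303, chr19:17402939-17405648, minus strand), or tetherin, holds budding virus particles at the cell surface. Their promoters, with those of ISG15 and IFI27, are printed below as the 250 bases before the RefSeq transcription start (GRCh38.p14), to show the element these genes share. The windows are chr1:27672193-27672442 (minus strand) for IFI6, chr19:17405631-17405880 (minus strand) for BST2, chr1:1013247-1013496 (plus strand) for ISG15 and chr14:94110565-94110814 (plus strand) for IFI27. Capitals mark matches, on either strand, to GAAA followed by 2 bases of any kind (NN) and again GAAA, a pattern of the interferon-stimulated response element.
IFI6: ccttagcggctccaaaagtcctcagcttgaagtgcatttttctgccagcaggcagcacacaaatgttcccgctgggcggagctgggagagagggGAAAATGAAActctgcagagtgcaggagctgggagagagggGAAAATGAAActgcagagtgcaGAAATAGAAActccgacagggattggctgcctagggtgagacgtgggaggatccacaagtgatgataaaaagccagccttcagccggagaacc
BST2: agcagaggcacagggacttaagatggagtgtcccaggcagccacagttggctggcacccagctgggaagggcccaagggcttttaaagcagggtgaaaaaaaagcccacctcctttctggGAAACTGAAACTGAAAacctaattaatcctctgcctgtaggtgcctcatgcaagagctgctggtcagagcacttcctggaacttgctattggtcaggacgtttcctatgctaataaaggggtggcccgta
ISG15: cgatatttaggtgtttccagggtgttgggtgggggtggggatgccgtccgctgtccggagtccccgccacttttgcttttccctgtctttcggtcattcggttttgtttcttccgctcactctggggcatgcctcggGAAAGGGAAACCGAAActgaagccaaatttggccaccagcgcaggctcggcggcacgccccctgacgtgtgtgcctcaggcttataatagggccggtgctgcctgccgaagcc
IFI27: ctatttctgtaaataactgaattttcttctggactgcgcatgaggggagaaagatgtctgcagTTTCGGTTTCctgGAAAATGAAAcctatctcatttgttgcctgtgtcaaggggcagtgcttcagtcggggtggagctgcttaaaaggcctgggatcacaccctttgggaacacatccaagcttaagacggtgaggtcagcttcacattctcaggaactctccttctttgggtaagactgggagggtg
The pattern occurred 3 times in the IFI6 window and 2 times in each of the other three, where the matches of BST2 and of ISG15 overlap. It occurred at least once in 3.02% of 35116 RefSeq promoter windows of the same length. A match describes the letters and does not show that a factor bound there.

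IFI6 was at 134, 187 and 165 CPM in CT and at 39.8, 40.5 and 47.6 CPM in KO1. The lowest CT library was well above the highest KO1 library. The log2 fold change was -1.93 ± 0.21 (SE, n = 3 against 3; edgeR adjusted p = 0.00731). BST2 was at 30.0, 25.7 and 43.2 CPM in CT and at 4.14, 2.58 and 1.82 CPM in KO1. Again the groups did not overlap, and the log2 fold change was -3.53 ± 0.43 (edgeR adjusted p = 0.0126). In these bulk samples fewer expressing cells and less RNA per cell cannot be told apart. Both calls were lost, with little change in size, when CT replicate 3 (IFI6 adjusted p = 0.0674, BST2 0.0864), KO1 replicate 1 (both 0.0573) or KO1 replicate 2 (0.0667 and 0.0998) was left out. BST2 was also lost without KO1 replicate 3 (0.0699), in a fit of the 6 libraries alone (0.0873) and with limma-voom (0.137). Over 17 alternative settings the log2 fold change ran from -2.04 to -1.81 for IFI6 and from -3.88 to -3.28 for BST2. The adjusted p ran from 7.7e-15 to 0.0941 for IFI6 and from 8.6e-13 to 0.137 for BST2, lowest with DESeq2 in both. Without the 3 libraries with the fewest genes detected, both were still called (adjusted p = 0.0182).

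**Figure D1:**
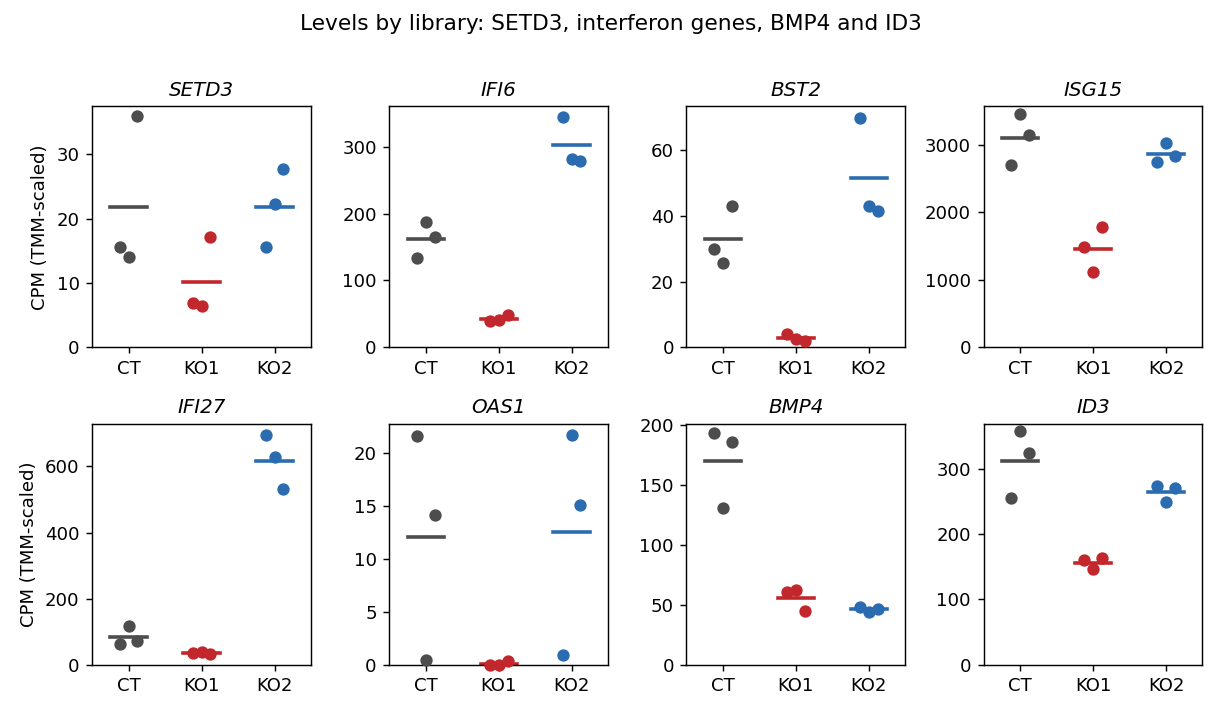
TMM-scaled CPM of 8 genes in each library (points: 3 replicates a group; line: group mean; each panel has its own axis from 0). IFI6 and BST2 in KO1 lie below CT and KO2, SETD3 overlaps between groups, and BMP4 is low in both knockout lines.

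Of the 44 listed interferon-stimulated genes, 35 were tested. In KO1, 2 of the 35 were called lower and 0 higher by edgeR, and 10 were lower and 0 higher at an unadjusted p below 0.05. Over all tested genes edgeR called 0.0144% lower, and 3% were lower and 2.74% higher at an unadjusted p below 0.05. DESeq2 called 5 of the 35 lower, and limma-voom 2, with 0 higher by either tool. The median log2 fold change of the 35 was -0.90, against -0.02 for all tested genes, with 32 negative and 3 positive values. For 10 of them all 3 KO1 libraries lay below all 3 CT libraries, and for 0 above; over all tested genes these shares were 6.73% and 6.47%. The median level of the list relative to the CT mean was 0.14, -0.13 and 0.03 (log2) in CT and -0.62, -0.55 and -0.79 in KO1. Over the alternative settings the list median stayed between -1.02 and -0.62. Without the 3 libraries with fewest genes detected, 28 of 35 values were negative and 4 members were called lower, among 5 genes called lower in that fit.

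ISG15, a ubiquitin-like protein conjugated to other proteins after interferon, was at 2695, 3453 and 3150 CPM in CT and at 1481, 1119 and 1784 CPM in KO1. Its groups did not overlap, but the log2 fold change of -1.08 ± 0.18 missed the threshold with edgeR (adjusted p = 0.0792). IFI27, a mitochondrial interferon-induced protein, was at 63.5, 117 and 71.6 CPM in CT and at 34.6, 38.2 and 30.9 CPM in KO1, without overlap (log2 fold change -1.28 ± 0.24, edgeR adjusted p = 0.181). Further members with no overlap were named after their values were seen. IRF9, a DNA-binding factor of the interferon response, was at 19.6, 16.6 and 9.09 CPM in CT and at 5.92, 4.35 and 2.12 CPM in KO1. EIF2AK2, the double-stranded RNA kinase PKR, was at 58.7, 59.4 and 39.0 CPM in CT and at 30.6, 23.8 and 10.2 CPM in KO1. OAS3, an oligoadenylate synthetase, was at 98.0, 69.4 and 84.9 CPM in CT and at 57.9, 37.6 and 39.4 CPM in KO1. All 3 genes were lower in each KO1 library than in any CT library, and none was called by edgeR (adjusted p from 0.640 for IRF9 to 0.826 for OAS3).

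OAS1, which makes the 2-5A signal that activates RNase L, was near absent in KO1. It was at 21.6, 0.443 and 14.1 CPM in CT and at 0, 0 and 0.303 CPM in KO1. These are 337 counts in CT against 2 in KO1, a ratio of 0.00617 (95% interval 7.4e-04 to 0.0225, counting error only). CT replicate 2 was close to the KO1 libraries, and the edgeR adjusted p was 0.429. The list also held abundant members with overlapping groups. IFITM3, a membrane protein that blocks virus entry, was at 1593, 2644 and 1701 CPM in CT and at 1057, 1506 and 2017 CPM in KO1. LGALS3BP, a secreted glycoprotein, had a log2 fold change of -0.23 ± 0.21 (edgeR adjusted p = 0.998). MHC class I presentation genes, many of them interferon-inducible, had 0 of 18 called, 2 lower at an unadjusted p below 0.05 (TAP1 and PSME2; 3% over all tested genes) and a median of -0.10.

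**Figure D2:**
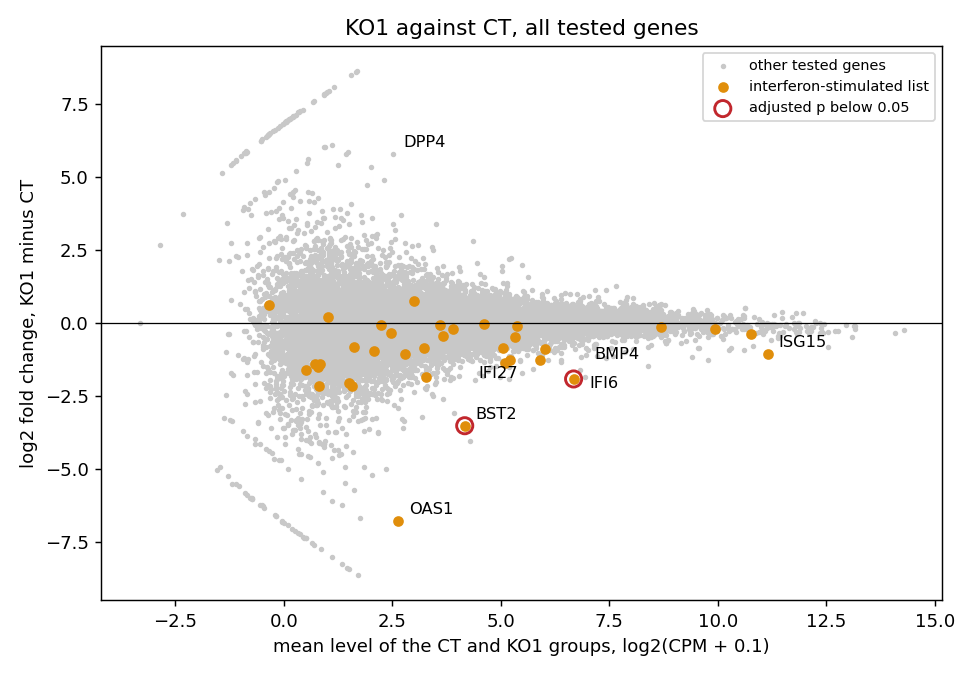
Log2 fold change (KO1 minus CT) against mean level for the 13846 tested genes; orange points are the 35 interferon-stimulated genes and red rings the genes with adjusted p below 0.05. The 2 ringed genes, IFI6 and BST2, are both on the interferon list, 32 of whose 35 members lie below 0; diagonal rows at the left are genes with 0 counts in a group.

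The other knockout line gave different values for these genes. IFI6 in KO2 was at 345, 282 and 279 CPM, above every CT library, where KO1 lay below. The direct test of KO2 against KO1 gave a log2 difference of 2.82 ± 0.21 (edgeR adjusted p = 6.3e-05). BST2 in KO2 was at 70.0, 43.2 and 41.4 CPM, a log2 difference from KO1 of 4.17 ± 0.44 (edgeR adjusted p = 0.00173). IFI27 in KO2 was at 695, 627 and 531 CPM, a log2 difference from KO1 of 4.16 ± 0.27 (edgeR adjusted p = 1.77e-05). These 3 genes are among the 4 (0.0289% of those tested) called between the lines. ISG15 in KO2, at 2741, 3024 and 2829 CPM, was within the CT range, and its difference from KO1 of 0.97 ± 0.18 was not called (edgeR adjusted p = 0.126). In the separately scaled table of Actin KO cells, IFI6 was at 122 to 168 CPM in Actin KO, 17.3 to 26.5 CPM with wild-type actin and 19.8 to 45.7 CPM with mutant actin. BST2 differed less there, at 103 to 124 CPM in Actin KO, 76.3 to 91.3 CPM with wild-type actin and 78.4 to 96.4 CPM with mutant actin.

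BMP4, a secreted bone morphogenetic protein, had the smallest unadjusted p of the named genes that were lower and not called. It was at 194, 131 and 186 CPM in CT and at 60.5, 62.7 and 44.6 CPM in KO1. No KO1 library reached the lowest CT library, and the log2 fold change was -1.61 ± 0.24 (edgeR adjusted p = 0.0545). BMP4 was called in 7 of 17 alternative settings, among them DESeq2, limma-voom and the fit without the 3 libraries with fewest genes detected. In KO2, which shares the CT libraries, it was at 48.4, 44.1 and 46.3 CPM, with a log2 fold change against CT of -1.88 (edgeR adjusted p = 0.0118), 1 of 8 genes (0.0578%) called for that line. ID3, an inhibitor of basic helix-loop-helix factors and a classical BMP target, was at 255, 358 and 324 CPM in CT and at 160, 146 and 163 CPM in KO1. Its groups did not overlap (log2 fold change -0.998 ± 0.183, edgeR adjusted p = 0.181). In KO2, where BMP4 was also low, ID3 was at 273, 250 and 270 CPM, a log2 fold change against CT of -0.24. Its log2 difference of KO2 from KO1, 0.76 ± 0.18, was not called (edgeR adjusted p = 0.419). Other BMP targets were looked up after these values were seen. MSX1, a homeobox factor, was at 390, 459 and 477 CPM in CT and at 235, 262 and 289 CPM in KO1. ID1 was at 356, 414 and 391 CPM in CT and at 314, 321 and 315 CPM in KO1. ID2 went the other way, at 36.0, 12.9 and 37.1 CPM in CT and 53.3, 45.6 and 49.6 CPM in KO1. MSX2 was lower without overlap, at 15.6, 8.64 and 11.1 CPM in CT and at 5.77, 5.29 and 3.34 CPM in KO1. SMAD6, SMAD7, SMAD9 and BAMBI had overlapping groups. edgeR called none of these targets, while DESeq2 called ID3 and MSX1 lower.

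Besides IFI6 and BST2, the named set held 13 genes lower and 15 higher that did not pass the threshold. They were the genes of smallest unadjusted p above 20 CPM with no overlap, and are given as values. All 28 kept their direction in each of the 17 alternative settings, which choosing them for no overlap had largely fixed in advance. DESeq2 called all 28, edgeR without a count filter 18 and limma-voom 2. GDF15, a stress-induced cytokine, was at 297, 381 and 365 CPM in CT and at 197, 160 and 196 CPM in KO1 (log2 fold change -0.91 ± 0.18, edgeR adjusted p = 0.199). MT2A, a metallothionein that binds zinc and copper, was at 1929, 2551 and 2335 CPM in CT and at 1365, 1333 and 1228 CPM in KO1 (log2 fold change -0.80 ± 0.16). TAGLN, transgelin, an actin-binding protein and SRF target, was at 36.0, 77.1 and 61.0 CPM in CT and at 19.4, 18.8 and 7.89 CPM in KO1 (log2 fold change -1.91 ± 0.38, edgeR adjusted p = 0.199). Transgelin in KO2 was at 101, 88.9 and 73.0 CPM, and the test of KO2 against KO1 gave 2.51 ± 0.39 (edgeR adjusted p = 0.0676).

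GPAT2, a mitochondrial glycerol-phosphate acyltransferase, was at 55.7, 82.0 and 70.0 CPM in CT and at 27.7, 22.7 and 13.2 CPM in KO1. NR2F1, an orphan nuclear receptor, was at 115, 84.4 and 88.4 CPM in CT and at 39.5, 37.1 and 42.9 CPM in KO1. Each was lower in every KO1 library than in any CT library, with log2 fold changes of -1.71 ± 0.35 and -1.27 ± 0.27. SNHG3, a host gene of small nucleolar RNAs, was at 40.2, 30.8 and 9.85 CPM in CT and at 3.85, 3.64 and 1.82 CPM in KO1. Its log2 fold change was -3.11 ± 0.59 (edgeR adjusted p = 0.181).

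Among the genes with KO1 above CT, GATA2, a zinc-finger transcription factor known from blood stem cells, had the smallest p of the named set. It was at 11.2, 15.1 and 13.5 CPM in CT and at 56.4, 37.8 and 84.6 CPM in KO1. Every KO1 library was above every CT library, and the log2 fold change was 2.17 ± 0.34 (edgeR adjusted p = 0.0667). BDNF, a neurotrophin, was at 16.2, 22.6 and 15.7 CPM in CT and at 43.6, 82.0 and 87.7 CPM in KO1 (log2 fold change 1.97 ± 0.32, edgeR adjusted p = 0.0792). LCN2, lipocalin-2, which binds bacterial siderophores, was at 9.02, 6.65 and 9.72 CPM in CT and at 38.3, 26.5 and 40.2 CPM in KO1 (log2 fold change 2.04 ± 0.37, edgeR adjusted p = 0.181). SCARA3, a scavenger receptor, was at 10.6, 16.4 and 13.0 CPM in CT and at 35.5, 60.3 and 90.7 CPM in KO1. In KO2 the values were 46.2, 46.7 and 41.4 CPM for GATA2, 45.5, 48.7 and 52.3 CPM for BDNF and 59.2, 30.0 and 33.9 CPM for LCN2, all above the CT libraries that both lines share.

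DPP4, a cell-surface dipeptidyl peptidase found on enterocytes, was below the level limit of the named set and was picked after its values were seen. It was at 0.194, 0.443 and 0 CPM in CT and at 18.8, 7.99 and 6.22 CPM in KO1. That is 4 counts against 236, a ratio of 61.4 (95% interval 23.7 to 227, counting error only), with an edgeR adjusted p of 0.0545. It was called in 5 of 17 alternative settings, DESeq2 among them. Its log2 fold change of 5.79 became 5.16 without KO1 replicate 1, 5.19 without CT replicate 3 and 6.49 without CT replicate 2, not called in any of these. In KO2 it was at 31.2, 24.1 and 22.2 CPM.

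**Figure D3:**
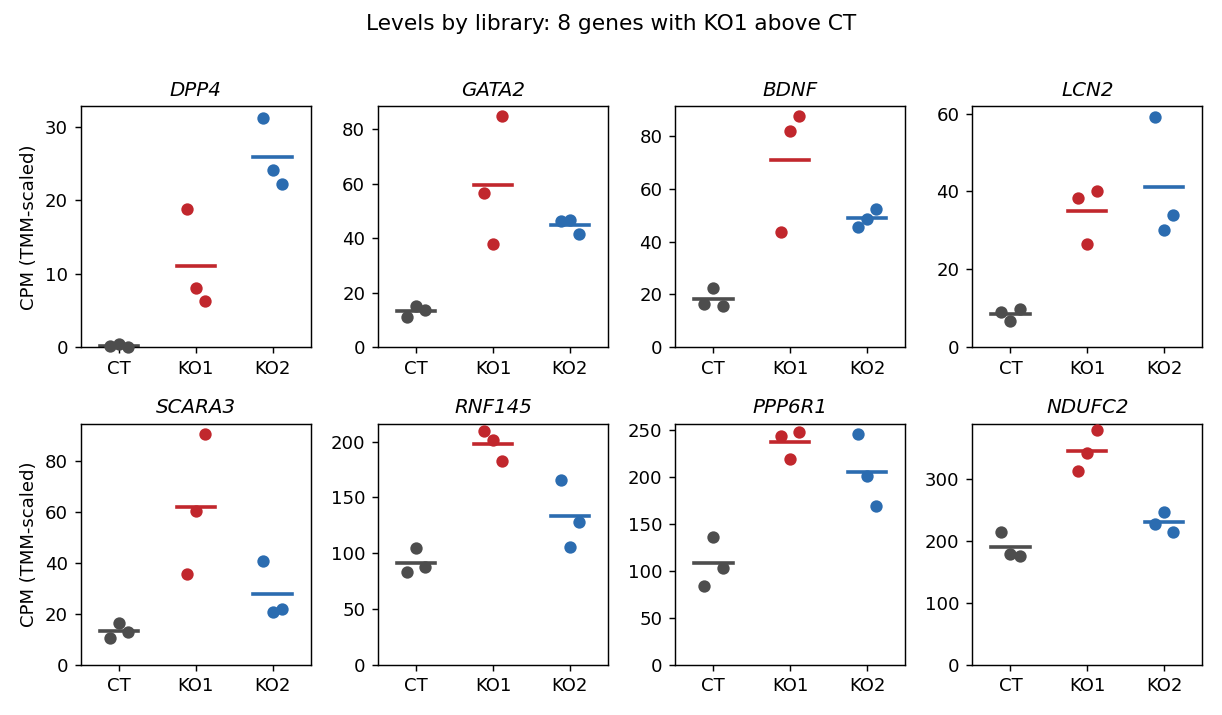
TMM-scaled CPM of 8 genes with every KO1 library above every CT library (points: 3 replicates a group; line: group mean; each panel has its own axis from 0). DPP4 is between 0 and 0.443 CPM in CT and from 6.22 to 18.8 CPM in KO1.

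The other named genes with KO1 above CT had log2 fold changes from 0.65 to 1.58. RNF145, a ubiquitin ligase of the endoplasmic reticulum, was at 82.7, 104 and 87.3 CPM in CT and at 210, 202 and 183 CPM in KO1 (log2 fold change 1.12 ± 0.22, edgeR adjusted p = 0.190). PPP6R1, a regulatory subunit of protein phosphatase 6, was at 83.8, 136 and 103 CPM in CT and at 243, 219 and 248 CPM in KO1. NDUFC2, a subunit of respiratory complex I, was at 214, 179 and 175 CPM in CT and at 313, 341 and 378 CPM in KO1. COTL1, coactosin, which binds actin filaments, was at 259, 283 and 254 CPM in CT and at 403, 450 and 397 CPM in KO1. In all 4 genes the gap between the groups was wider than the range within CT. LPCAT1, SLC16A5, CTSH, UBAC1, DNPH1, CTDSPL and KLK6 completed the set, with log2 fold changes from 0.65 (DNPH1) to 1.58 (CTSH) and edgeR adjusted p from 0.332 (LPCAT1) to 0.517 (KLK6).

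SRF and MRTF targets, actin assembly genes and YAP and TAZ targets had medians near that of all genes, and immediate early genes a lower one. SRF and MRTF targets had a median log2 fold change of -0.02 over 20 tested members, 10 positive and 10 negative, with 0 called by edgeR or limma-voom and 1 lower by DESeq2, TAGLN. TPM2 (log2 fold change 0.16), FLNA (-0.15) and CNN2 (-0.15), its most counted members, had overlapping groups. Genes for actin assembly and crosslinking had a median of 0.00 over 37 members, and CFL1, cofilin, a log2 fold change of -0.02 ± 0.13. YAP and TAZ targets had a median of -0.03 over 18 members. Immediate early and AP-1 genes had 14 negative and 4 positive values of 18, a median of -0.26 and 0 called by edgeR, DESeq2 or limma-voom. At an unadjusted p below 0.05, 3 of the 18 were lower and 0 higher, against 3% and 2.74% of all tested genes. KO1 lay below CT without overlap in 5 and above in 0, against 6.73% and 6.47% of all tested genes. IER3, an early stress gene, was at 716, 880 and 669 CPM in CT and at 577, 404 and 481 CPM in KO1, without overlap (edgeR adjusted p = 0.590).

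Adhesion genes were mixed. Of 37 focal adhesion components, 0 were called by edgeR, DESeq2 or limma-voom, and 4 were higher and 0 lower at an unadjusted p below 0.05. Their median was 0.21, with 25 positive and 12 negative values, and KO1 lay above CT without overlap in 9 and below in 1. Over all tested genes 2.74% were higher and 3% lower at an unadjusted p below 0.05, and 6.47% lay above and 6.73% below without overlap. CAV1, caveolin-1, was at 85.1, 64.5 and 68.5 CPM in CT and at 138, 159 and 132 CPM in KO1. CAV2 was at 102, 75.8 and 76.5 CPM in CT and at 139, 152 and 133 CPM in KO1. PXN, paxillin, a scaffold of focal adhesions, was at 123, 116 and 103 CPM in CT and at 177, 177 and 156 CPM in KO1. For these 3 genes, named after their values were seen, no libraries overlapped, and the edgeR adjusted p was 0.525, 0.640 and 0.693. ACTN4, FLNA and ZYX, the most counted members, overlapped between groups. Without the 3 libraries with fewest genes detected, the median of the list was 0.30, with 30 positive values. The 12 tested integrins had a median of -0.03, and ITGA3 and ITGB4 had log2 fold changes of -0.15 and -0.11. Laminins and matrix genes had a median of -0.33 over 23 members, where SPARC was lower (35.1, 7.09 and 22.6 CPM in CT, 2.07, 2.00 and 6.67 CPM in KO1) and LAMB3 higher (10.2, 7.09 and 19.8 CPM in CT, 29.3, 25.5 and 33.4 CPM in KO1) without overlap. Neither passed the test (edgeR adjusted p = 0.575 and 0.735). Cell-cell junction genes had a median of 0.17 over 29 members.

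**Figure D4:**
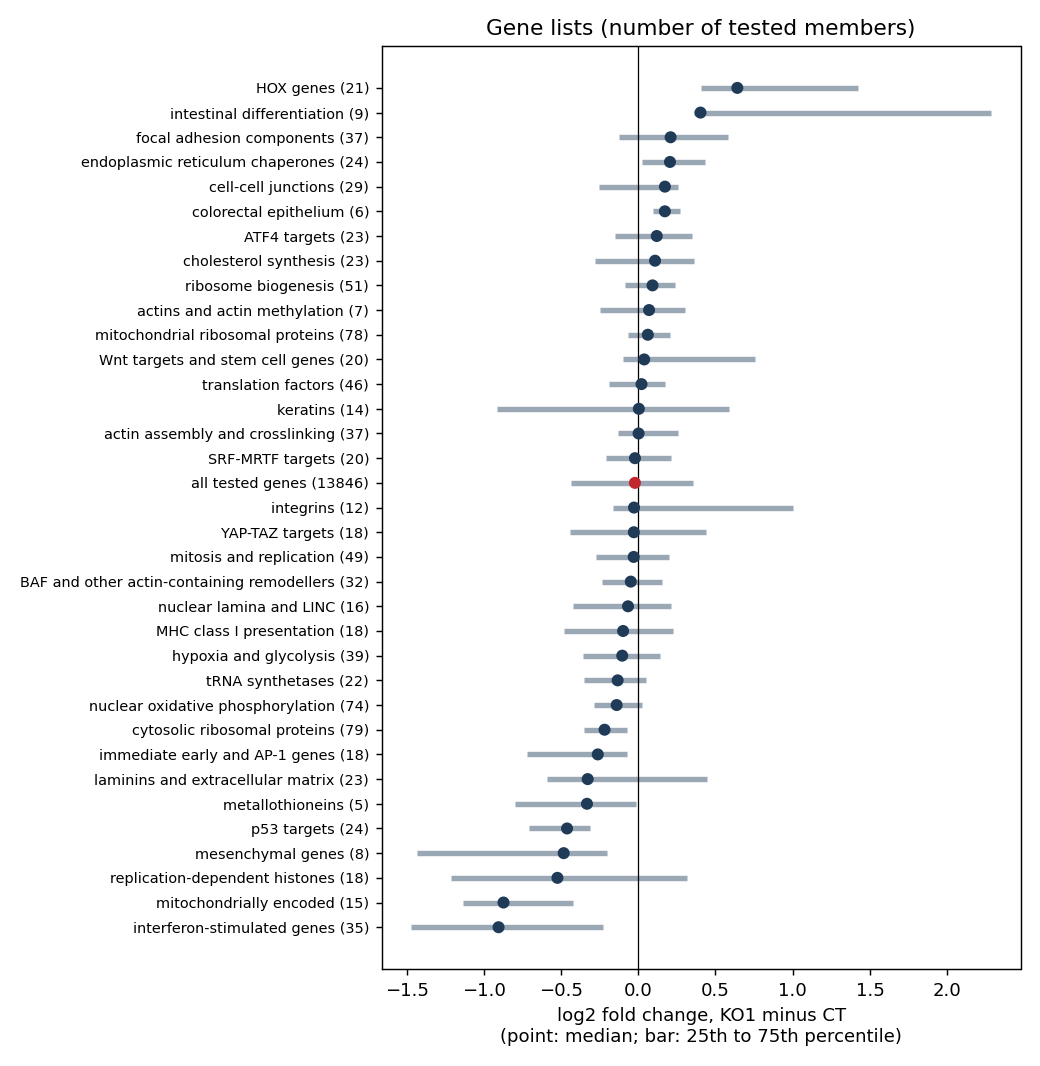
Median (point) and 25th to 75th percentile (bar) of the log2 fold change, KO1 minus CT, for each list with at least 5 tested members, with all tested genes in red. Interferon-stimulated genes (-0.90) and mitochondrially encoded genes (-0.87) have the lowest medians and HOX genes (0.64) the highest.

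Among the translation lists, cytosolic ribosomal proteins lay farthest from the median of all genes. Of 79 cytosolic ribosomal protein genes, 72 had a negative and 7 a positive log2 fold change, with a median of -0.22. None was called by edgeR or limma-voom, 3 were called lower by DESeq2, RPS4X and RPL32 among them, and 23 were lower and 0 higher at an unadjusted p below 0.05. KO1 lay below CT without overlap in 22 of the 79 and above in 0. Over all tested genes 3% were lower at an unadjusted p below 0.05 and 6.73% lay below CT without overlap. RPL32, of the large subunit, was at 1863, 1852 and 1083 CPM in CT and at 705, 813 and 1025 CPM in KO1, without overlap (edgeR adjusted p = 0.423). Many of these genes have near-identical pseudogene copies, so the split of reads among copies is uncertain. Without the 3 libraries with fewest genes detected, 71 of the 79 values were negative, with a median of -0.27. Ribosomal protein genes took 24.2% to 24.97% of counts in CT, 21.4% to 22.5% in KO1 and 23.8% to 24.4% in KO2. Because shares of counts sum to a fixed total, a smaller share here raises the share of other genes. The TMM-scaled CPM do not sum to a fixed total, and the part of this effect in them was not tested. Ribosome biogenesis genes had a median of 0.09 over 51 members, and 9 of them were above and 2 below CT without overlap, against 6.47% and 6.73% of all tested genes. LYAR, a nucleolar protein, was at 91.1, 78.0 and 85.1 CPM in CT and at 135, 155 and 131 CPM in KO1 (edgeR adjusted p = 0.640). Translation factors (median 0.02 over 46), mitochondrial ribosomal proteins (0.06 over 78) and tRNA synthetases (-0.13 over 22) lay near the median of all genes.

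Genes encoded by mitochondrial DNA had a negative log2 fold change in all 15 cases, with a median of -0.87, 7 lower at an unadjusted p below 0.05 (3% over all tested genes), and 0 called by edgeR or limma-voom. DESeq2 called 3 lower, MT-CYB, MT-RNR1 and MT-RNR2. MT-CYB, cytochrome b, was at 127, 300 and 154 CPM in CT and at 75.9, 43.8 and 40.3 CPM in KO1 (log2 fold change -1.86 ± 0.35, edgeR adjusted p = 0.181). MT-RNR2, the large mitochondrial ribosomal RNA, was at 861, 1163 and 920 CPM in CT and at 532, 478 and 598 CPM in KO1. These genes took 1.52%, 1.70% and 0.983% of counts in CT and 0.815%, 0.952% and 0.917% in KO1. The list median was -0.48 without CT replicate 2, the library with the highest share, and -0.60 without the 3 libraries with fewest genes detected. Nuclear genes of oxidative phosphorylation had a median of -0.14 over 74 members, with NDUFC2 among the exceptions. Mitochondrial share is also a mark of RNA and cell quality, and its part in the results was not tested.

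Targets of p53, which HCT-116 carries in active form, had a negative log2 fold change in 21 of 24 cases, with a median of -0.46. None was called by edgeR or limma-voom, DESeq2 called GDF15, and 3 were lower and 0 higher at an unadjusted p below 0.05. KO1 lay below CT without overlap in 8 of the 24 and above in 0. Over all tested genes 3% were lower at an unadjusted p below 0.05, and 6.73% lay below and 6.47% above without overlap. CDKN1A, the cell cycle inhibitor p21, was at 653, 734 and 607 CPM in CT and at 471, 509 and 499 CPM in KO1 (log2 fold change -0.43 ± 0.17, edgeR adjusted p = 0.826). TP53I3, a quinone oxidoreductase induced by p53, was at 78.5, 44.1 and 62.1 CPM in CT and at 39.8, 17.5 and 19.9 CPM in KO1. FDXR, ferredoxin reductase, overlapped between groups. Without the 3 libraries with fewest genes detected, 19 of the 24 values were negative and the median was -0.40. The list level relative to the CT mean was -0.38, -0.38 and -0.51 (log2) in KO1 and -0.28, -0.29 and -0.18 in KO2. Mitosis and replication genes had a median of -0.03 over 49 members.

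HOX genes, homeobox factors of body position, had 18 positive and 3 negative values of 21 and a median of 0.64. No member was called by edgeR, DESeq2 or limma-voom, and 2 were higher and 1 lower at an unadjusted p below 0.05, against 2.74% and 3% of all tested genes. HOXB7 was at 121, 106 and 119 CPM in CT and at 193, 191 and 200 CPM in KO1 (log2 fold change 0.75 ± 0.22, edgeR adjusted p = 0.595). HOXA7 (log2 fold change 0.41) and HOXA9 (-0.02) overlapped between groups. The list level was 0.74, 1.02 and 0.79 (log2) in KO1, above CT at 0.21, -0.33 and -0.12 and above KO2 at 0.02, 0.13 and 0.23. With HOXA4, which had 0 counts in CT, set at its bound, the median was again 0.64. It was 0.69 without the 3 libraries with fewest genes detected, with 19 positive values.

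**Figure D5:**
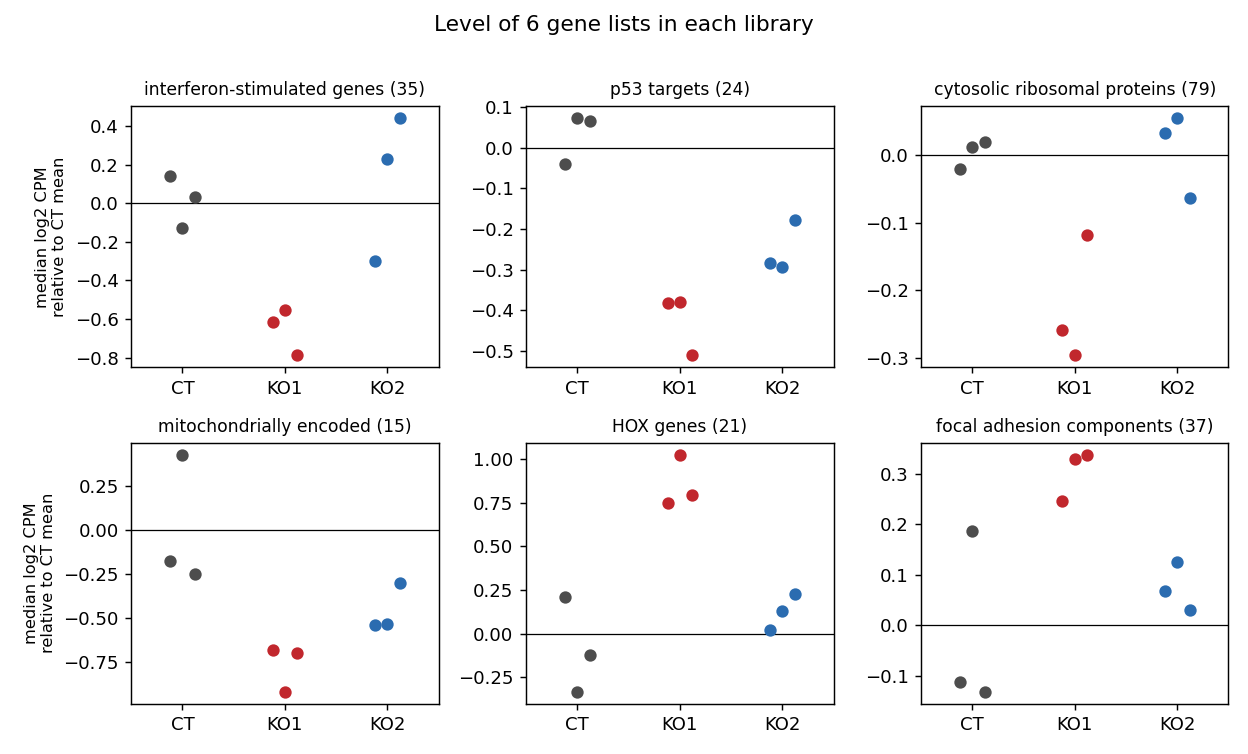
Median over list members of log2 CPM relative to the CT mean of each gene, by library (y axis, log2 units; 3 points a group; tested members in brackets). The KO1 libraries lie below the CT libraries for interferon-stimulated genes, p53 targets, ribosomal proteins and mitochondrially encoded genes, and above them for HOX genes and focal adhesion components.

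BAF and other actin-containing remodellers had a median of -0.05 over 32 members, with 0 called by edgeR, DESeq2 or limma-voom, 1 higher at an unadjusted p below 0.05 (SMARCA2, at a mean of 1.46 CPM in KO1), and no member with separated groups in either direction. RUVBL2 and SMARCD2, its most counted members beside SMARCA4, had log2 fold changes of -0.05 ± 0.20 and -0.10 ± 0.30. Keratins had a median of 0.00 over 14, and Wnt targets and stem cell genes 0.04 over 20, where CCND1, cyclin D1, had a log2 fold change of 0.01 ± 0.23. Of 40 intestinal differentiation genes only 9 had enough counts for the test, with a median of 0.40, and CDX2, the intestinal master regulator, was at 19.98, 28.6 and 14.3 CPM in CT and at 31.1, 21.6 and 30.2 CPM in KO1. Metallothioneins had 4 negative values of 5, endoplasmic reticulum chaperones a median of 0.21 over 24, ATF4 targets 0.12 over 23, cholesterol synthesis genes 0.11 over 23, hypoxia and glycolysis genes -0.10 over 39, nuclear lamina genes -0.07 over 16 and mesenchymal genes -0.48 over 8. DESeq2 called 1 metallothionein (MT2A) and 1 mesenchymal gene (SPARC) lower, and edgeR and limma-voom called 0 in these lists.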

How the data were processed

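RNA of 18 libraries, labelled HCT-116 except for KO2 replicate 3 (HCT-117), was sequenced after poly(A) selection. The 9 SETD3 libraries used here form 1 deposited table of expected counts per gene, made by the authors. Per the submitters' processing notes the tools were Trim Galore 0.4.5, cutadapt 1.15, Bowtie2 and RSEM 1.2.28, on GRCh38. The Bowtie2 version, annotation release and strand setting are not given in the sources used here, so overlapping and antisense genes may share counts. Expected counts were rounded, genes filtered with filterByExpr, and libraries scaled by TMM. edgeR 4.0.16 (R 4.3.3) fitted its robust quasi-likelihood model to CT, KO1 and KO2 together, which share 1 estimate of spread, and p-values were Benjamini-Hochberg adjusted over all 13846 tested genes. Calls are at an adjusted p below 0.05. DESeq2 1.42.0 and limma-voom (limma 3.58.1) were alternatives. Coordinates are from GENCODE 29 and promoters from RefSeq. Same-numbered CT and KO1 replicates did not deviate together (correlations -0.04, -0.36 and -0.14), and over the 9 same-numbered pairs of the 3 groups the correlation ran from -0.55 to 0.22, so no pairing was used. Total counts ran from 4898827 to 9966534 in the 6 libraries; the counting intervals are exact and at the 0.95 level, with a floor of 3 counts over the group.

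Named genes were SETD3, ACTB, ACTG1 and SMARCA4, called genes of at least 5 CPM with no overlap (up to 15 each way), places left being filled by smallest unadjusted p above 20 CPM without overlap, called list members, and the 3 most counted members of each of 39 lists, of which the text gives those that bear on a result. The members and lists were chosen with earlier results of these data known. Alternatives were other scalings, filters, tools and samples, a replicate block, GC and length offsets and leaving out each library. The fit without the 3 libraries with fewest genes detected was chosen after seeing the data. Results for some genes are not reported here.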

Additional observations from a re-analysis of the deposited data

Results flagged for a closer look

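For 3 genes the KO2 and KO1 lines differed when tested directly, in the same fit of 9 libraries. IFI27 had a log2 difference, KO2 minus KO1, of 4.16 (SE 0.27, edgeR adjusted p = 1.77e-05), with every KO2 library above and every KO1 library below the CT libraries. IFI6 had a difference of 2.82 (SE 0.21, edgeR adjusted p = 6.3e-05), with the same arrangement. BST2 had a difference of 4.17 (SE 0.44, edgeR adjusted p = 0.00173), where the KO1 libraries were below CT and those of KO2 overlapped CT. Both lines are labelled SETD3 KO, and KO2 replicate 3 is labelled HCT-117.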

How the results depend on the processing

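The number of genes called depended on the filter and the tool. Without a count filter edgeR called 58 genes (23 higher, 35 lower), with at least 10 counts in 6 libraries 4 (1 higher), with DESeq2 90 (39 higher, 51 lower), and with GC and length offsets 14 (5 higher, 9 lower). With only the CT and KO1 libraries 1 gene was called, lower in KO1. Leaving out each library in turn gave 0 to 4 genes, 0 to 1 higher and 0 to 3 lower, with 4 without CT replicate 2 and 0 without CT replicate 3, KO1 replicate 1 or KO1 replicate 2. Without the 3 libraries with fewest genes detected 7 were called (2 higher, 5 lower). RLE and upper-quartile scaling each called 2 genes and limma-voom 3. The cause was not tested. For SETD3 the log2 fold change was -1.95 without these 3 libraries and ranged from -1.73 to -0.54 when leaving out each library in turn. With the replicate block 0 genes were called (577 at an unadjusted p below 0.05; 2 with the block and GC and length offsets together), and IFI6 and BST2 had an adjusted p of 0.0941; the replicate numbers did not pair the samples. No value with a call changed direction. Of the named genes' values under alternatives, 66 passed the threshold newly and 11 no longer passed. The others kept their side, 506 counted as unchanged and 12 as moved in size. Size was compared, against the standard error, only for values called in neither fit. The median standard error of a log2 fold change was 1.35 at 1 to 5 CPM and 1.90 below 1 CPM.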

Other observations

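Some low genes, picked after their values were seen, were at or near 0 in CT or in KO1. KRT14, a basal keratin, was at 2.04, 12.9 and 4.29 CPM in CT and at 0 in all 3 KO1 libraries, at least 36.2-fold lower against a floor of 3 counts over the group (edgeR adjusted p = 0.281). It was at 3.18, 17.5 and 2.90 CPM in KO2. ZC4H2, a zinc-finger protein, was at 0 in CT and at 6.07, 3.29 and 1.37 CPM in KO1, at least 27.0-fold higher (edgeR adjusted p = 0.314), and at 3.82, 8.13 and 4.22 CPM in KO2. PDE4B, a cyclic AMP phosphodiesterase, had 156 counts in CT and 1 in KO1, a ratio of 0.00667 (95% interval 1.7e-04 to 0.0377, counting error only), and was at 0, 0.0903 and 0 CPM in KO2. BATF2, an AP-1 family factor induced by interferon, had 173 counts in CT and 4 in KO1, a ratio of 0.0240 (95% interval 0.00648 to 0.0627, counting error only). Neither PDE4B nor BATF2 was called by edgeR (adjusted p = 0.423 for each).

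By chromosome, among 7625 genes of at least 10 CPM, the median log2 fold change lay between -0.06 (chromosome 6) and 0.13 (chromosome 13), apart from -0.90 for the 14 mitochondrial genes, and was 0.01 over all. No nuclear chromosome stood apart in this measure.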
